A study of Homo sapiens with 3 samples.

Results

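Autophagy is the route by which a cell wraps cytoplasm in a double membrane, the autophagosome, and delivers it to the lysosome. The ULK1 kinase complex starts the process, the class III PI3K complex with BECN1 marks the membrane with PI3P, ATG9A vesicles and PI3P-binding WIPI proteins help it to grow, and a conjugation system with ATG5 attaches the small ATG8 proteins (the LC3 and GABARAP families) to its lipid. Cargo receptors such as SQSTM1 (p62) and NBR1 bind ubiquitin and the ATG8 proteins together, and are degraded with what they carry. The 10 genes described here, SQSTM1, MAP1LC3B, GABARAPL1, GABARAPL2, ULK1, BECN1, ATG5, ATG9A, WIPI1 and NBR1, were taken by symbol from a count table of 51136 genes, and each of the 10 was present.

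The expression profiles came from PANC-1, a human line derived from a pancreatic carcinoma, with 1 library each from cells given no agent (control), cells given 200 μM ginsenoside Rg3, a ginseng saponin, and cells given 50 μM tamoxifen (TAM), an antiestrogen, for 24 h. The question put to the profiles was what either drug did to gene expression. The labels do not say whether the control cells received the solvent or how many cultures stand behind a library. With 1 library per condition no difference below has a replicate check, and fewer cells or less RNA per cell cannot be told apart. Every 95% interval covers counting error alone.

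The reads counted on genes ranged from 11300766 to 12861693 per library. Of the 4 epithelial keratin genes, KRT8 and KRT18 had 7406 to 15329 counts in each library, and KRT7 and KRT19 had 93 to 665. VIM had 39783 to 55276. Of the 14 markers of acinar, endocrine, leukocyte and endothelial cells, 10 were at 0 in each library and 3 had at most 3 counts, while CD14 had 97 counts in control cells, 46 after Rg3 and 37 after TAM. Levels are given as CPM after TMM scaling for library depth and composition (scaled CPM). A gene was called past the fold limit when the ratio of its scaled levels was over 1.5 or under 0.67, the limits named in the methods of the study, which are 0.58 and -0.58 on the log2 scale.

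Fold changes in these libraries followed the base composition of the transcripts, which touches several of the 10 genes. Across the 11583 genes with at least 50 counts and a known GC content, the log2 fold change with Rg3 had a Spearman's rho of -0.81 with GC content, and with TAM it was 0.51 across 11022 genes. These genes share their libraries, and the values describe them. ATG5 lay at the low end, with 38.8% GC, and ULK1 (64.2%), ATG9A (59.8%) and SQSTM1 (58.0%) at the high end. Fold changes of the 10 genes against the control library, and of most other genes named, are therefore also given after removal of a smooth trend over transcript length and GC content. What the trend contributes to any 1 gene was not tested.

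**Figure D1:**
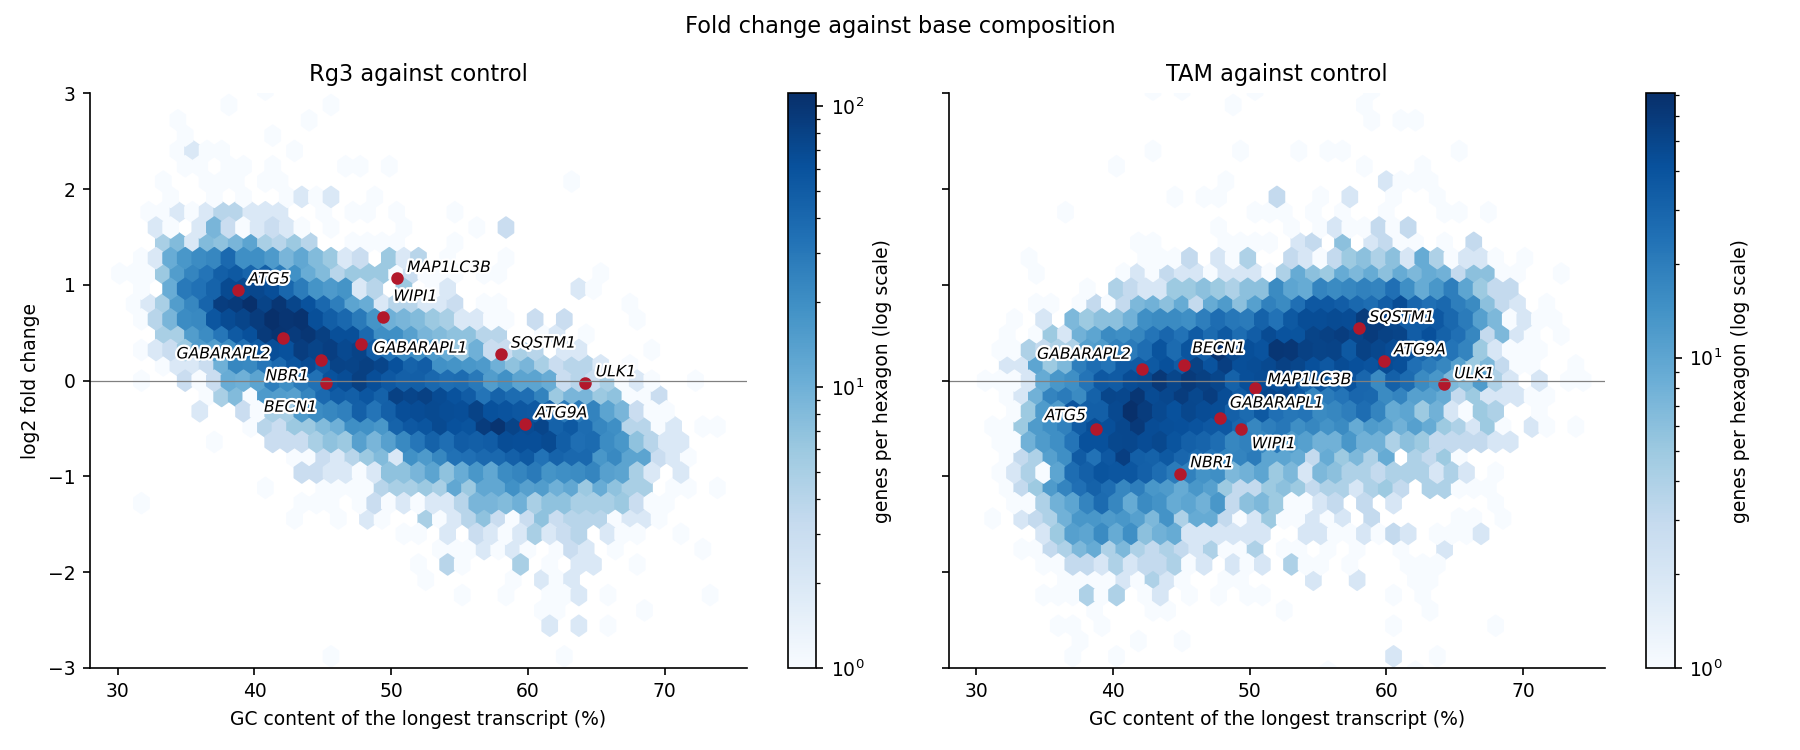
Log2 fold change against the GC content of the longest transcript (%), with Rg3 (left) and with TAM (right), each against the control library; shading gives the number of genes with at least 50 counts, and red points mark the 10 autophagy genes (few genes lie beyond the axes). MAP1LC3B, SQSTM1 and ULK1 sat at the upper edge of the cloud with Rg3, ATG5 lay within it, and NBR1 sat below most genes of its GC content with TAM.

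Per kilobase of the longest transcript, SQSTM1 was the most abundant of the 10 in every library, at 303 scaled CPM per kilobase in control cells (95% interval 297 to 308), 367 after Rg3 (361 to 373) and 443 after TAM (436 to 451). ATG9A followed with 42.4, 31.1 and 49.0. In the control library the next levels were 20.0 for GABARAPL2, 13.3 for MAP1LC3B, 11.8 for ULK1, 9.86 for NBR1, 9.11 for BECN1, 8.42 for ATG5, 8.04 for WIPI1 and 5.99 for GABARAPL1. The counting intervals of MAP1LC3B and ULK1 overlapped, and those of each neighbouring pair from NBR1 to WIPI1 did as well, and the differences between neighbours were not themselves tested. The order also rests on the transcript length used, and which transcripts of each gene these cells express was not examined. In the Rg3 library MAP1LC3B stood at 27.9, next to GABARAPL2 at 27.4, with overlapping intervals. In the TAM library NBR1 stood at 5.05, among WIPI1 (5.65) and GABARAPL1 (4.56) at the foot of the order. SQSTM1 alone gave 65.7% of the reads of the 10 genes in control cells, 67.2% after Rg3 and 74.0% after TAM.

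**Figure D2:**
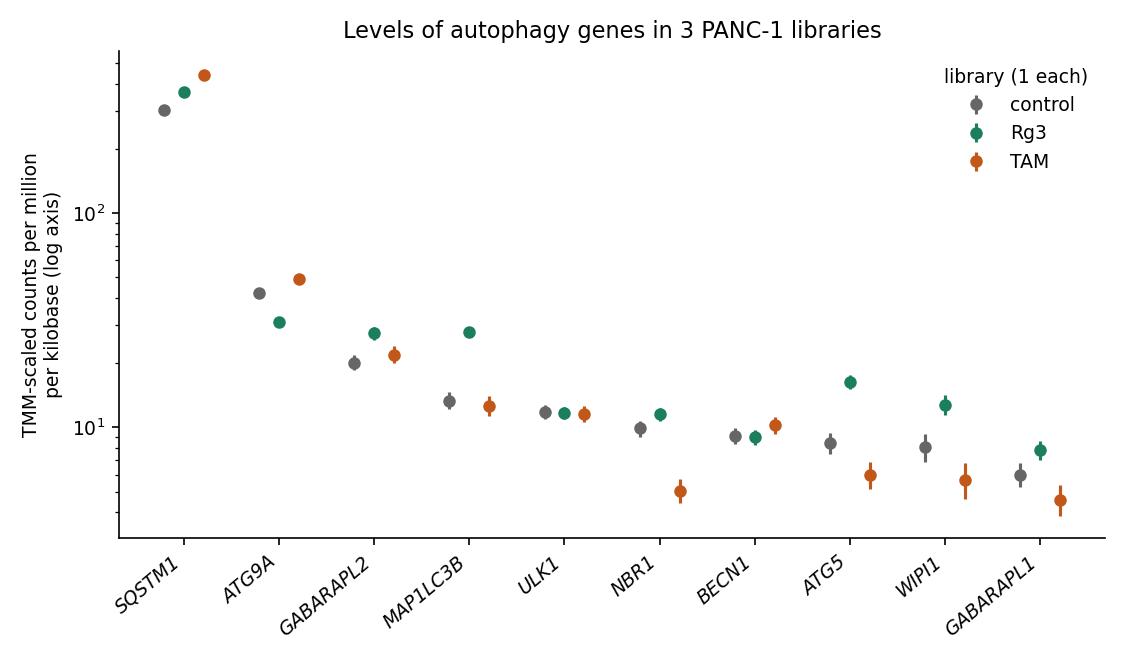
Levels of the 10 genes in scaled CPM per kilobase on a log axis, ordered by the control library; each point is 1 library and the bars are 95% counting intervals. SQSTM1 stands far above the other 9 genes. MAP1LC3B, ATG5, WIPI1, GABARAPL1, GABARAPL2 and NBR1 each have their highest level in the Rg3 library. NBR1, ATG5, WIPI1 and GABARAPL1 each have their lowest level in the TAM library, as do MAP1LC3B and ULK1 within counting error of the control library.

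With Rg3, 3 of the 10 genes were higher than in the control library past the fold limit (MAP1LC3B, ATG5 and WIPI1) and 0 were lower, beside 25.0% of the 16487 genes compared that were higher and 19.5% that were lower. With TAM, 0 were higher and 1 was lower (NBR1), beside 17.4% and 23.8% of 16079 genes. The median log2 fold change of the 10 genes was 0.33 with Rg3 and -0.06 with TAM, where all genes compared had medians of 0.04 and -0.02. Both comparisons use the same control library. After this trend was taken out, 4 genes were higher with Rg3, of which MAP1LC3B and WIPI1 had also been called before and SQSTM1 and ULK1 had not, and 0 were lower, while 11.0% of all genes were then higher and 8.42% lower. With TAM the removal left 2 genes lower, WIPI1 and NBR1, and 0 higher, beside 16.7% and 12.8% of all genes. Under a fold limit of 2, MAP1LC3B alone was higher with Rg3, beside 8.92% of all genes, and 0 of the 10 were lower with TAM, beside 11.3%. With library totals in place of TMM scaling, 4 of the 10 were lower with TAM and 0 higher, beside 32.7% and 9.80% of all genes.

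**Figure D3:**
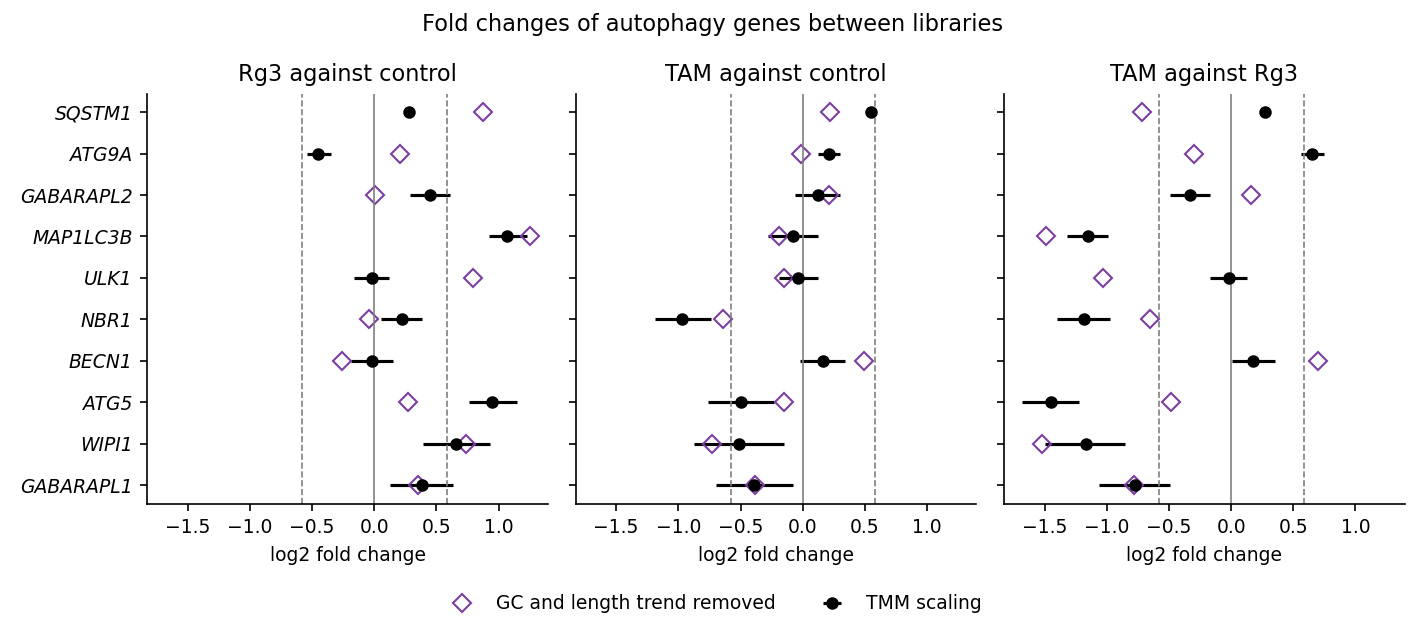
Log2 fold changes of the 10 genes between the libraries, with 95% counting intervals (black) and after the GC and length trend was taken out (open diamonds); dashed lines mark the fold limits of 1.5 and 0.67. MAP1LC3B and WIPI1 lie past the upper limit with Rg3 on both scales, ATG5 only before the removal, and NBR1 lies past the lower limit with TAM on both.

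ULK1, the kinase that starts autophagosome formation (chromosome 12: 131894651-131923167, plus strand; all positions are GENCODE 29 genes on GRCh38), had 719 counts in control cells, 890 after Rg3 and 608 after TAM, or 62.6, 61.8 and 61.1 scaled CPM. The levels of the 3 libraries lay within counting error of each other. The log2 fold change was -0.02 with Rg3 (95% interval -0.16 to 0.12) and -0.04 with TAM (-0.19 to 0.12). As a transcript of high GC content, ULK1 came out at 0.79 with Rg3 when the trend was removed, past the fold limit, and at -0.15 with TAM.

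BECN1, the core subunit of the class III PI3K complex (chromosome 17: 42810134-42833350, minus strand), was likewise level, with 509, 629 and 492 counts and 44.3, 43.7 and 49.4 scaled CPM in the control, Rg3 and TAM libraries. Its log2 fold change was -0.02 with Rg3 (-0.19 to 0.15) and 0.16 with TAM (-0.02 to 0.34), and both intervals included 0. The values were -0.26 and 0.49 with the trend removed. The longest BECN1 transcript shares 15.6% of its stretches of 50 bases with CNTD1 on the opposite strand, a gene with 2, 0 and 0 counts. Annotated exons of PSME3 also overlap those of BECN1 on the opposite strand. So do exons of MGAT4B with SQSTM1 and of FBXO31 with MAP1LC3B, and the counts of these neighbours are not given here. Whether the counting used strand is not given in the sources used here, so that reads from a gene and its neighbour on the other strand cannot be told apart.

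ATG9A, the transmembrane scramblase carried on the vesicles that seed the membrane (chromosome 2: 219219380-219229717, minus strand), had 1961 counts in control cells, 1804 after Rg3 and 1962 after TAM, or 171, 125 and 197 scaled CPM. It was the member with the lowest fold change with Rg3, at -0.45 on the log2 scale (-0.54 to -0.35), short of the fold limit. With the trend removed this value was 0.21. With TAM the change was 0.21 (0.12 to 0.30), which went to -0.01 with the trend removed and to -0.002 when library totals took the place of TMM scaling. AC068946.2, an annotated gene on the same strand that is not used here, shares 44.8% of the stretches of the longest ATG9A transcript, and reads on it cannot be told apart from ATG9A reads.

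WIPI1, which binds PI3P on the growing membrane (chromosome 17: 68420948-68457513, minus strand), had 174 counts in control cells, 345 after Rg3 and 106 after TAM. Its scaled CPM of 15.2, 24.0 and 10.7 put the Rg3 library highest and the TAM library lowest. WIPI1 was 1.58-fold higher with Rg3 (log2 0.66, 0.39 to 0.93), and the value was 0.74 with the trend removed. With TAM it was 0.703-fold, just short of the limit (log2 -0.51, -0.87 to -0.15), and past it at -0.73 with the trend removed and at -0.72 with library totals. Of its transcript, 25.1% of stretches lie opposite ARSG, which had 15, 18 and 9 counts.

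ATG5, the acceptor of ATG12 in the complex that directs lipid attachment of ATG8 proteins (chromosome 6: 106045423-106325791, minus strand), had 311 counts in control cells, 754 after Rg3 and 191 after TAM, or 27.1, 52.4 and 19.2 scaled CPM. The order of the libraries was that of WIPI1. ATG5 was 1.93-fold higher with Rg3 (log2 0.95, 0.76 to 1.15) and 0.709-fold with TAM (log2 -0.50, -0.76 to -0.23). With the trend taken out, the Rg3 value came to lie within the fold limits, at 0.27. The TAM value had been within them already and was -0.15 with the trend removed. With library totals the TAM value was -0.71, past the limit.

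Among the ATG8 proteins, MAP1LC3B encodes LC3B, the form most used as a marker of autophagosomes (chromosome 16: 87383995-87404779, plus strand). It had 471 counts in control cells, 1241 after Rg3 and 386 after TAM, or 41.0, 86.2 and 38.8 scaled CPM. The Rg3 library stood apart, while the control and TAM libraries lay within counting error of each other. With Rg3 MAP1LC3B was 2.10-fold higher (log2 1.07, 0.92 to 1.23), the highest fold change of the 10 genes and the only member also past a fold of 2, and it was 1.25 on the log2 scale with the trend removed. With TAM the log2 fold change was -0.08 (-0.28 to 0.12), and -0.19 with the trend removed.

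Reads on the coding part of MAP1LC3B are hard to assign, because MAP1LC3B2 on chromosome 12 (116548105-116576448, plus strand) has a coding sequence of the same 375 bases without the stop codon, 99.5% identical, that differs at 2 positions, C30G and A338G (the base of MAP1LC3B, the position counted from the start codon, then the base of MAP1LC3B2). The GENCODE 29 windows around both differences are printed to show how little separates them, with the differing base in capitals. Coding positions 6 to 54 cross a splice junction in MAP1LC3B and are unbroken in MAP1LC3B2 (chr12:116575948-116575996), and positions 314 to 362 lie at chr16:87403033-87403081 and chr12:116576256-116576304.
MAP1LC3B, 6 to 54: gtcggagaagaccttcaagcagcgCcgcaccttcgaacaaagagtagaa
MAP1LC3B2, 6 to 54: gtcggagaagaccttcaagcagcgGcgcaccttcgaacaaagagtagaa
MAP1LC3B, 314 to 362: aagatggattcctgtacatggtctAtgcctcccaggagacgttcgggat
MAP1LC3B2, 314 to 362: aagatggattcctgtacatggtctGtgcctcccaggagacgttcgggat
Of the whole MAP1LC3B transcript, with its long untranslated end, 6.88% of stretches recur in MAP1LC3B2. The table lists MAP1LC3B2 with 167 counts in control cells, 411 after Rg3 and 167 after TAM. It was 1.96-fold higher with Rg3 (log2 0.97, 0.71 to 1.24) and its change with TAM was 0.21 (-0.11 to 0.52), values that were 1.11 and -0.03 with the trend removed. Summed over both genes, a step chosen after the values were seen, the counts were 638, 1652 and 553, and the log2 fold change with Rg3 was 1.05 (0.91 to 1.18).

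GABARAPL1, a GABARAP-type ATG8 gene (chromosome 12: 10212458-10223130, plus strand), had 221, 360 and 146 counts in the control, Rg3 and TAM libraries, or 19.2, 25.0 and 14.7 scaled CPM. It was 1.30-fold higher with Rg3 (log2 0.38, 0.13 to 0.63) and 0.762-fold with TAM (log2 -0.39, -0.70 to -0.08), short of the limit in both. These values hardly moved with the trend removed (0.35 and -0.38), and with library totals the TAM value was -0.60, past the limit. GABARAPL2, also called GATE-16 (chromosome 16: 75566351-75577881, plus strand), had 523, 896 and 493 counts, or 45.5, 62.2 and 49.5 scaled CPM. Its log2 fold change of 0.45 with Rg3 (0.29 to 0.61) went to 0.003 with the trend removed, and to 0.59, past the limit, with library totals. That with TAM was 0.12 (-0.06 to 0.30), or 0.21 with the trend removed.

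The make-up of the ATG8 family does not depend on the scaling between libraries, but it carries the GC and length trend. MAP1LC3B took 13.2% of the reads of the 7 family genes in control cells (exact binomial 95% interval 12.1 to 14.4), 23.1% after Rg3 (22.0 to 24.2) and 10.6% after TAM (9.61 to 11.6). GABARAP, which is no member, took 56.4% (54.7 to 58.0), 43.8% (42.5 to 45.2) and 64.2% (62.6 to 65.8). The share of MAP1LC3B was thus highest and that of GABARAP lowest in the Rg3 library, and the intervals of the 3 libraries did not overlap for either gene. Shares add up to the whole, so that a larger share of 1 gene lowers those of the rest. The share of GABARAPL1 was 6.21% in the control library (5.44 to 7.05) and 6.70% with Rg3 (6.04 to 7.40), and the 4.01% with TAM (3.39 to 4.70) lay below both intervals. The share of GABARAPL2 was 14.7% (13.5 to 15.9), 16.7% (15.7 to 17.7) and 13.5% (12.4 to 14.7), with the Rg3 and TAM intervals apart. With the trend removed, however, the log2 fold change of GABARAPL2 was 0.003 with Rg3 and 0.21 with TAM. For TAM against Rg3 its direction turned, from -0.33 to 0.16. Shares were not taken with the trend removed.

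**Figure D4:**
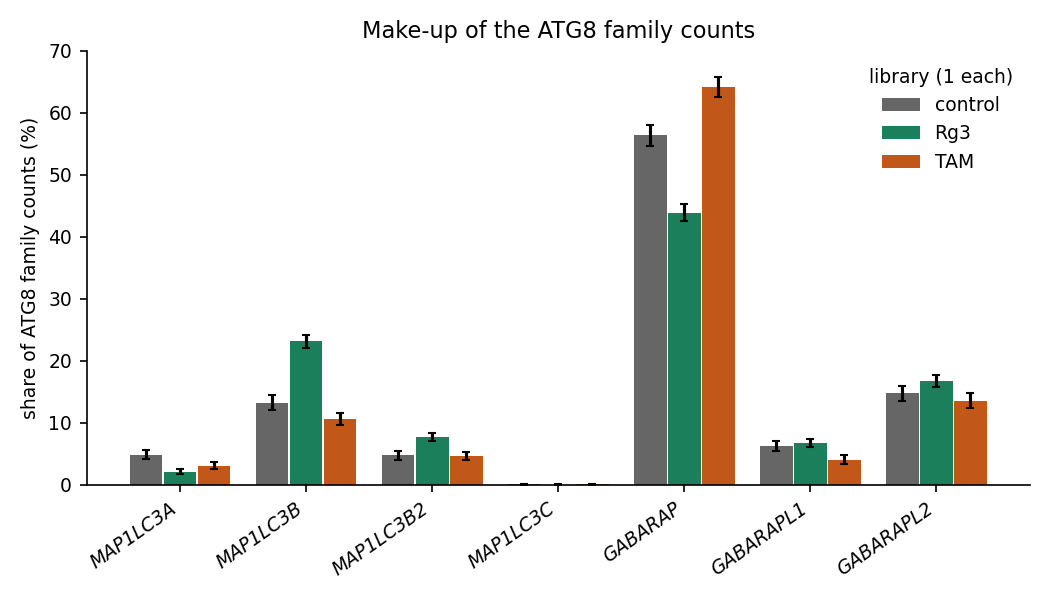
Share of the reads of the 7 ATG8 family genes (%) taken by each gene in the 3 libraries; bars start at 0 and carry exact binomial 95% intervals. The MAP1LC3B share was 23.1% with Rg3 against 13.2% in the control library and 10.6% with TAM, and GABARAP held the largest share of counts in each.

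SQSTM1, the ubiquitin-binding receptor p62 that is itself a cargo of autophagy (chromosome 5: 179806398-179838078, plus strand), had 10375 counts in control cells, 15781 after Rg3 and 13176 after TAM, or 904, 1096 and 1324 scaled CPM. Both treated libraries lay above the control library by more than counting error. SQSTM1 was 1.21-fold higher with Rg3 (log2 0.28, 0.24 to 0.31) and 1.47-fold higher with TAM (log2 0.55, 0.51 to 0.59), both short of the limit. Which drug went with the larger difference depended on the processing: with the trend removed the values were 0.87 with Rg3, past the limit, and 0.22 with TAM, and with library totals they were 0.42 and 0.34. Of its transcript, 50.7% of stretches lie opposite MRNIP, which was listed as C5orf45 with 163, 167 and 181 counts.

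NBR1, a second ubiquitin-binding receptor that works with p62 (chromosome 17: 43170481-43211689, plus strand), had 527 counts in control cells, 768 after Rg3 and 234 after TAM, or 45.9, 53.3 and 23.5 scaled CPM. The TAM library was far below the other two. With TAM NBR1 was 0.512-fold (log2 -0.97, -1.19 to -0.74), and it stayed past the limit at -0.64 with the trend removed, at -1.17 with library totals and at -0.93 with DESeq2 size factors. With Rg3 its log2 fold change was 0.22 (0.05 to 0.38), and -0.04 with the trend removed. With TAM the 2 receptors thus differed from the control library in opposite directions.

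Set against each other, the TAM and Rg3 libraries share no control. Relative to Rg3, 5 of the 10 genes were lower with TAM past the limit and 1 was higher, beside 35.4% and 30.0% of the 16493 genes compared. The lower genes were ATG5 (0.367-fold, log2 -1.45, -1.68 to -1.22), NBR1 (0.441-fold, -1.18, -1.40 to -0.97), WIPI1 (0.445-fold, -1.17, -1.50 to -0.85), MAP1LC3B (0.450-fold, -1.15, -1.32 to -0.99) and GABARAPL1 (0.587-fold, -0.77, -1.06 to -0.49). ATG9A was 1.57-fold higher (log2 0.65, 0.56 to 0.75), but this turned to -0.30 with the trend removed, and with library totals 0 of the 10 were higher and 6 lower, beside 18.8% and 45.5% of all genes. Under a fold limit of 2, 4 of the 10 were lower (MAP1LC3B, ATG5, WIPI1 and NBR1) and 0 higher, beside 24.2% and 16.9% of all genes. With the trend removed 1 was higher (BECN1, 0.70) and 6 were lower, beside 13.9% and 26.3%. ATG5 fell short of the limit with the trend removed (-0.48), while NBR1, WIPI1, MAP1LC3B and GABARAPL1 stayed past it, at -0.65, -1.52, -1.49 and -0.78. SQSTM1 was at 0.27 (0.24 to 0.31) with TMM scaling, at -0.08 with library totals and at -0.72 with the trend removed. The doses of the drugs differ, 200 μM against 50 μM, so that this is a comparison of these libraries and not of the compounds at matched dose.

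RefSeq promoters (GRCh38.p14), 250 bases before to 50 after a start, were matched for each of the 10 genes, 14 in all, and searched on both strands for letters that known regulators of autophagy genes bind. The core of the CLEAR element of TFEB and TFE3 (CACGTG) was found in 0 of the 14, where 7.26% of all 35116 promoters hold it. The amino acid response element read by ATF4 and its partners (TGATGNAA) was found in 0, with 3.62% of all promoters. The cAMP response element (TGACGTCA), held by 1.85% of all promoters, was found in GABARAPL1, and the antioxidant response element of NRF2 (TGACNNNGC), held by 13.3%, in MAP1LC3B. Both windows are printed on the strand of the gene with the match in capitals, GABARAPL1 at chr12:10212837-10212864, where the match begins 30 bases before the start, and MAP1LC3B at chr16:87392280-87392308, where it begins 46 bases before it.
GABARAPL1: gctcgcggggTGACGTCAcagcccgacg
MAP1LC3B: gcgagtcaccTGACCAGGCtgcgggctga
These are matches of letters and show no binding.

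The other genes of the pathway were listed by role, and 80 of them were in the table. With Rg3, 28 of the 77 compared were higher and 5 were lower past the fold limit, with a median log2 fold change of 0.40, and with TAM 8 of 76 were higher and 20 lower, with a median of -0.10. With the trend removed these counts became 17 and 0 with Rg3, of which 9 had been among the 28, and 6 and 11 with TAM. Over all genes compared, 25.0% were higher and 19.5% lower with Rg3, and 17.4% and 23.8% with TAM, and these shares are the background for the counts by role as well. They were 11.0% and 8.42% with Rg3 and 12.8% and 16.7% with TAM once the trend was removed.

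Among the partners of ULK1, the scaffold gene RB1CC1 (FIP200) had 150, 350 and 39 counts in the control, Rg3 and TAM libraries, and was 1.86-fold higher with Rg3 (log2 0.90, 0.62 to 1.18) and at -1.74 on the log2 scale with TAM (-2.28 to -1.22). ULK2, a close relative of ULK1, was at 0.62 on the log2 scale with Rg3 and at -1.38 with TAM, where ULK1 was level. ATG101 went the other way, at -0.32 with Rg3 and 0.99 with TAM. With the trend removed, the values of RB1CC1 were 0.16 and -0.97, those of ULK2 0.48 and -0.97, and those of ATG101 0.28 and 0.49. In the class III PI3K complex, where BECN1 was level, 5 of 8 other genes were higher with Rg3 and 0 lower, and 2 were lower with TAM. None of those 5 stayed past the limit with the trend removed, when 0 of the 7 genes with a value were higher and the median with Rg3 went from 0.65 to 0.29. The lipid kinase itself, PIK3C3, was at 1.13 with Rg3 (0.79 to 1.48) and -1.14 with TAM (-1.71 to -0.59), and its regulatory subunit PIK3R4 at 0.66 and -1.01. PIK3C3 was within the limits in both with the trend removed, at 0.46 and -0.27, and PIK3R4 was at 0.32 and -0.60, the latter still past the limit.

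Around ATG9A and WIPI1, 2 of 8 genes were higher with Rg3, the scramblase gene TMEM41B (1.12) and the lipid transfer gene ATG2B (1.03), and both were lower with TAM (-0.71 and -2.57, the latter from 41 counts to 6). ATG2B stayed past the limit with the trend removed (0.71 and -1.73) and TMEM41B did not (0.51 and -0.28). With the trend removed 2 of the 8 genes were higher with Rg3, of which 1 had been called before. In the conjugation machinery 4 of 9 genes were higher with Rg3, with a median of 0.53, and all 4 were within the limits with the trend removed, when the median was 0.14 and ATG4D (0.97) was the gene called. ATG12, the partner of ATG5, was at 1.15 with Rg3 (0.92 to 1.39) and 0.06 with TAM, and with the trend removed it was at 0.40 with Rg3, within the limits as ATG5 was, and at 0.60 with TAM. The protease gene ATG4D was the only one of these 9 past the limit with TAM (0.96), but not with the trend removed (0.46), when ATG12 was the only one. MAP1LC3A, another LC3 gene, was lower with Rg3 (-0.91, -1.26 to -0.56), opposite to MAP1LC3B, and at -0.16 with the trend removed.

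Of the other cargo receptor genes, 7 of 13 were higher with Rg3 and 1 was lower, with a median log2 fold change of 0.73, and 0 of 12 were higher and 4 lower with TAM, with a median of -0.38. When the trend was taken out, 5 of 12 were higher with Rg3, of which 3 had been called before, and 2 were lower with TAM, and the medians were 0.45 and -0.07. TAX1BP1, which acts beside p62 and NBR1, had 840, 2191 and 528 counts and was at 1.06 with Rg3 (0.94 to 1.17), a value that was 1.05 with the trend removed. CCPG1, a receptor for the endoplasmic reticulum, was at 1.36 with Rg3 and -0.67 with TAM, which became 0.67 and 0.09 with the trend removed. FKBP8, a mitochondrial receptor, was lower with Rg3 (-0.93), at -0.12 with the trend removed. WDFY3 (-1.44) and FUNDC1 (-0.71) were lowest with TAM, and remained below the limit with the trend removed (-0.58 and -0.71). Among the fusion genes, STX17, the SNARE of the autophagosome, was at 1.12 with Rg3 and -0.85 with TAM, on counts of 52, 142 and 25, and at 0.73 and -0.72 with the trend removed, while 12 of 14 genes of this group were within the limits with Rg3.

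**Figure D5:**
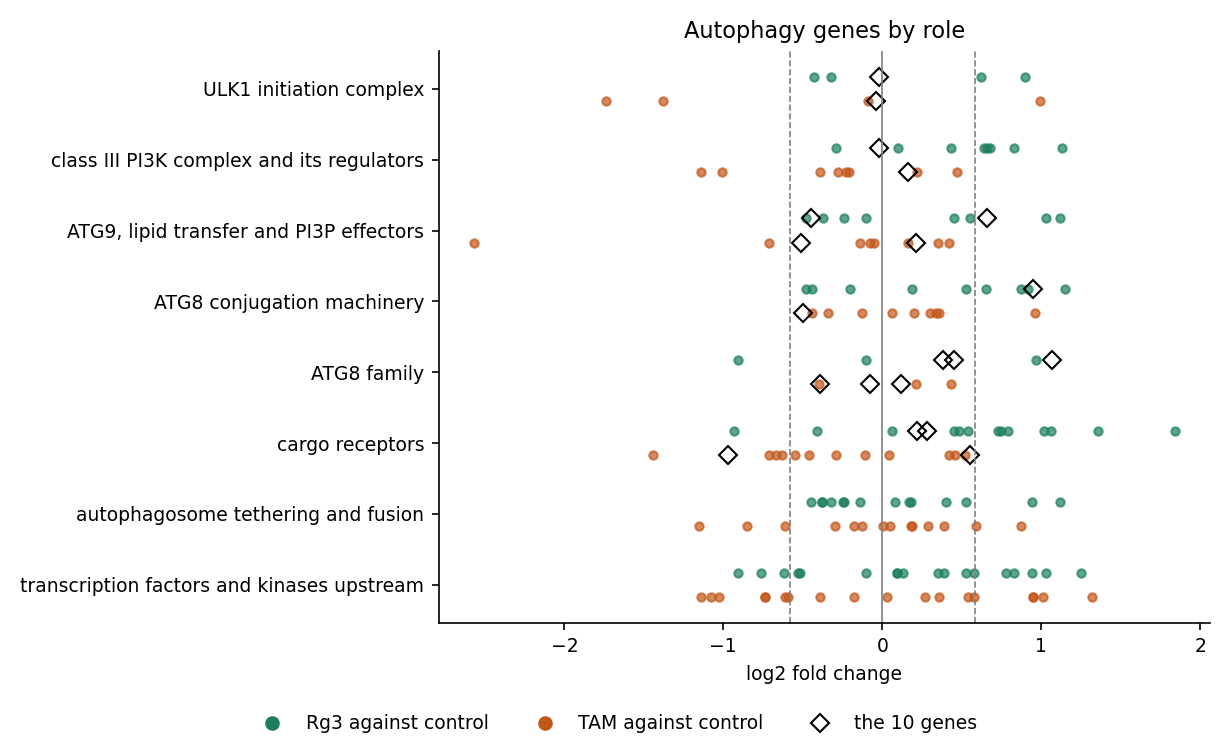
Log2 fold changes of autophagy genes by role, with Rg3 (green) and TAM (orange) against the control library; each circle is a gene outside the 10, open diamonds are the 10 genes, and dashed lines are the fold limits. Before the trend was removed, the cargo receptor genes outside the 10 had a median of 0.73 with Rg3 and -0.38 with TAM (0.45 and -0.07 after it), and the fusion genes lay mostly between the limits with Rg3.

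Among genes that act upstream, TFEB, a transcription factor for autophagy and lysosome genes, had 85, 63 and 142 counts, which put it at -0.76 with Rg3 (-1.25 to -0.27) and 0.95 with TAM (0.55 to 1.35). With the trend removed the values were -0.18 and 0.57, both within the limits. Its relative TFE3 was at -0.10 and 0.27, and at 0.56 and -0.03 with the trend removed, which turned both signs. NFE2L2 (NRF2), which drives SQSTM1 and whose inhibitor KEAP1 is bound by p62, was at 1.03 with Rg3 (0.87 to 1.18) and -0.74 with TAM (-0.97 to -0.52), and at 0.82 and -0.70 with the trend removed. ATF4 was at 0.13 with Rg3 and 0.54 with TAM, but at 0.65, past the limit, and 0.12 with the trend removed, so that the drug with the larger value changed. DDIT3 (CHOP), its partner in the stress response, was at 1.25 (1.03 to 1.47) and 0.95 (0.71 to 1.19), also past the limit with the trend removed (1.32 and 0.73). MTOR, the kinase that restrains ULK1, was at 0.09 with Rg3 and at -0.61 with TAM (-0.74 to -0.49), which became 0.30 and -0.24 with the trend removed. The transcript counts give no measure of autophagic flux, which rests on protein turnover.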

How the data were processed

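RNA from PANC-1 cells was sequenced on the Ion Proton per the labels, with 1 library per condition. The authors checked reads with FAST-QC, aligned them with TopHat and used MAQ for splice junctions. The submitters' processing notes name GRCh38. The annotation, counting tool and use of strand are not given in the sources used here. The deposited values are raw read counts per gene symbol, and 0 columns lacked a mapped library. The limma step described in the methods takes replicates and was not run on 1 library per condition.

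From the counts, TMM factors came from edgeR 4.0.16 (R 4.3.3), and folds and exact (Clopper-Pearson) intervals from scipy 1.17.1 in Python 3.11.15. A gene was compared where either library held at least 10 counts. A count under 3 was raised to 3, and no fold was taken where both were at or under 3. No test of conditions was run. Alternatives were library totals, DESeq2 1.42.0 size factors, filters of 1 or 50 counts, folds of 2 and 0.5, a call that also asked that the interval leave out no change, and removal of a loess trend (span 0.3) on GC content and log2 length of the longest GENCODE 29 transcript. GC content was matched for 86.6%, 87.2% and 86.5% of genes compared for Rg3, for TAM and for TAM against Rg3. Shared stretches were 50 bases long. The folds, their intervals and the calls were tested on counts simulated from the control library, scaled by library totals. The TMM and DESeq2 scaling, the trend removal and the sequence searches were not tested in this way.

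Members and gene lists were chosen with earlier results of these data known. Named genes outside the 10 were, by role and comparison, up to 2 higher and 2 lower past the fold limit with at least 50 counts, of which some are given by number, plus TFEB, TFE3, ATF4, DDIT3, NFE2L2, MTOR, MAP1LC3B2 and genes sharing stretches with a member. GABARAP, ATG9B, MAP1LC3C and KIAA0226L were named after their values were seen, and so were the promoter motifs.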

Additional observations from a re-analysis of the deposited data

How the results depend on the processing

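No paired analysis was possible because only 1 library stands for a condition, and for the same reason no library could be left out. Library totals in place of TMM scaling shifted each log2 fold change by 0.14 with Rg3, by -0.21 with TAM and by -0.35 for TAM against Rg3, and this shift by construction left 4 of the 10 genes lower with TAM and 0 higher for TAM against Rg3, where of 77 other autophagy genes 7 were then higher and 42 lower (16 and 36 with TMM). Of all genes compared for TAM against Rg3, 18.8% were then higher and 45.5% lower (30.0% and 35.4% with TMM). DESeq2 size factors and filters of 1 or 50 counts moved no count of genes by over 1.5 times, and neither did the demand that the counting interval leave out no change. Taking out the GC and length trend left 2 of the 10 genes lower with TAM. Of the other autophagy genes, 17 were then higher with Rg3 and 0 lower, 11 were lower with TAM, and 5 were higher and 28 lower for TAM against Rg3. Of all genes, 11.0% were then higher and 8.42% lower with Rg3, and 16.7% were lower with TAM. For TAM against Rg3 13.9% of all genes were higher and 26.3% lower. With folds of 2 and 0.5, 1 of the 10 genes was higher with Rg3, 0 were lower with TAM and 0 were higher for TAM against Rg3. Of the other genes, 11 of 77 were higher with Rg3 and 0 lower, and 2 of 76 were higher with TAM and 10 lower. For TAM against Rg3, 7 of 77 were higher and 28 lower. Of all genes, 8.92% were higher with Rg3, 11.3% were lower with TAM, and 16.9% were higher and 24.2% lower for TAM against Rg3. Shares of all genes lower with Rg3 and higher with TAM are not given at these folds. The 0 of 77 lower with Rg3 and the 2 of 76 higher with TAM therefore have no background here. Removal of the trend turned the direction of 31 of 147 named values, most of them within the fold limits before it. Of those past the limits it turned 9, those of ATG9A (-0.30), SH3GLB1 (0.21), ATG12 (0.15), ATG4D (-0.57), PHB2 (-0.16), YKT6 (-0.09) and SESN2 (-0.39) for TAM against Rg3, of CCPG1 with TAM (0.09) and of PRKAA1 with Rg3 (-0.08). The cause was not tested. Depth limits ATG9B and MAP1LC3C, with at most 2 counts in any library, and KIAA0226L, at 0 in each.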

Other observations

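The balance between genes of the same step can be read within each library, where no scaling enters. These ratios were chosen after the values were seen and are given as values. The counts of SQSTM1 were 19.7 times those of NBR1 in control cells, 20.5 times after Rg3 and 56.3 times after TAM. The ratio was thus 2.86-fold higher with TAM than in the control library (95% exact interval 2.44 to 3.36, counting error only) and 1.04-fold with Rg3 (0.930 to 1.17). The GC and length trend does not cancel in such a ratio. With the trend removed, SQSTM1 and NBR1 were at 0.87 and -0.04 on the log2 scale with Rg3. They were at 0.22 and -0.64 with TAM, so that SQSTM1 then stood above NBR1 with both drugs and not with TAM alone. The ratio of MAP1LC3B to GABARAP counts was 0.235 in control cells, 0.527 after Rg3 and 0.165 after TAM, which is 2.24-fold with Rg3 (1.98 to 2.54) and 0.703-fold with TAM (0.605 to 0.817). Against GABARAPL2, the ratio of MAP1LC3B was 1.54-fold with Rg3 (1.32 to 1.79) and 0.869-fold with TAM (0.721 to 1.05), and the latter interval included 1.

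Of the 18 genes listed as upstream, 5 were higher and 3 lower with Rg3 past the fold limit, and 4 were higher and 7 lower with TAM. Over all genes compared, 25.0% were higher and 19.5% lower with Rg3, and 17.4% and 23.8% with TAM. With the GC and length trend removed, 6 of the 18 were higher with Rg3, of which 3 had been called before, and 0 were lower. With TAM 3 were then higher and 3 lower, all of them called before. Of all genes, 11.0% were then higher and 8.42% lower with Rg3, and 12.8% and 16.7% with TAM. Some nutrient and stress regulators among the 18 are given here. DDIT4 (REDD1), an inhibitor of MTOR signalling, had 1144 counts in control cells, 994 after Rg3 and 2468 after TAM, at 1.32 on the log2 scale with TAM (1.21 to 1.42) and -0.53 with Rg3. SESN2, another inhibitor of that pathway, was at 1.01 with TAM (0.77 to 1.26) and 0.39 with Rg3. Without the GC and length trend the values put DDIT4 at 0.86 and SESN2 at 0.72 with TAM, both past the fold limit, and DDIT4 at 0.03 and SESN2 at 1.04 with Rg3. RPTOR, the MTOR partner, was lower with Rg3 (-0.91) and at -0.25 with the trend removed. FOXO3, a transcription factor of autophagy genes, was at -1.14 with TAM (-1.45 to -0.84) and -0.73 with the trend removed.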
